A study of Drosophila melanogaster with 15 samples.

Results

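Constitutive sense R-loops are described here. They are regions of the Drosophila genome, on the strand of an annotated transcript, that hold R-loop peaks of cultured cells and of embryos of both ages. Members were selected on the peak calls themselves. Same-strand peaks of the 3 deposited lists with 1 bp or more in common were merged, and a merged region was kept if it held a peak of every list and shared 1 bp or more with an annotated transcript running on that strand. This gave 2721 members of 51900 regions in all, which is 13.1% (95% Wilson interval 12.6 to 13.5%) of the 20813 regions on the strand of a transcript. A further 2091 regions with peaks of all 3 lists overlapped a transcript only on the other strand (constitutive antisense regions), and 1924 overlapped no transcript. In members the region as a whole had to meet the transcript, so a single peak in it could miss it. Of the 2786 S2 peaks in members, 2749 overlapped a transcript themselves.

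The lists come from ssDRIP-seq, in which the antibody S9.6 recovers RNA:DNA hybrids and single-stranded libraries keep the strand. They cover S2 cells, an untreated Drosophila culture line for which the labels give no strain, and untreated whole Oregon R embryos collected at 2–3 h and at 14–16 h after egg laying. Each sample type had 2 ssDRIP replicates, 2 inputs and 1 ssDRIP sample treated with RNase H1, which degrades the RNA of a hybrid, and each list was called by the authors on both replicates together. The S2 list holds 28464 peaks, the 2–3 h list 22581 and the 14–16 h list 28961, with position, width and strand but no height or read count. No value below therefore has a replicate error and no test between sample types was possible. Intervals cover counting error over regions or peaks only, the depth is unknown, and cell type markers could not be checked in peak lists. In whole embryos a peak can come from any share of the cells.

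An R-loop is a nucleic acid structure in which an RNA pairs with a DNA strand and the other DNA strand is left single. R-loops form where the nascent RNA anneals behind the polymerase, and the RNA strand then has the sequence of the coding strand of the gene. Purine-rich RNA paired with pyrimidine-rich DNA makes a stable hybrid, which is why strand asymmetry of G over C or of A over T is followed in such maps. R-loops are cleared by RNase H enzymes and helicases and are known both for roles in gene regulation and as a source of replication stress.

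The DNA at the centre of these regions shows what the lists shared. For each member the core is the set of bases covered by all 3 lists, and the 200 bases around the centre of the longest core stretch were read from dm6 on the strand the lists give to the region. Which strand of the hybrid that label stands for is not given in the sources used here. The 9 sequences belong to members with the highest agreement of the lists and with the longest cores. Capitals mark the longest unbroken stretch of purines (A or G). The shared intron of CG46458 and the Hox gene Antp (chr3R:6956869-6957068, reverse strand), the myosuppressin receptor gene MsR1 (chr3L:2337891-2338090, forward strand) and CG4168 (chr2L:15190530-15190729, reverse strand) were taken for agreement, and all 3 windows lie in introns. Msp300, a giant nesprin of the muscle nuclear envelope (chr2L:5174202-5174401, forward strand), and sls, the titin-like Z-disc protein (chr3L:2068208-2068407, reverse strand), were taken for core length and lie in coding exons. The introns of headcase, heca (chr3R:30287278-30287477, forward strand), of the Y-linked gene WDY (chrY:2389103-2389302, forward strand), of the integrin alpha subunit gene mew (chrX:13253602-13253801, reverse strand) and of the muscarinic acetylcholine receptor gene mAChR-B (chr3R:8069965-8070164, forward strand) complete the set.
CG46458 and Antp: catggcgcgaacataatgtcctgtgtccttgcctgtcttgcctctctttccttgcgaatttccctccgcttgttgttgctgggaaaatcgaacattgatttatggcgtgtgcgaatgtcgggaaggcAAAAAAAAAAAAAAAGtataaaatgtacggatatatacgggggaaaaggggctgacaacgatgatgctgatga
MsR1: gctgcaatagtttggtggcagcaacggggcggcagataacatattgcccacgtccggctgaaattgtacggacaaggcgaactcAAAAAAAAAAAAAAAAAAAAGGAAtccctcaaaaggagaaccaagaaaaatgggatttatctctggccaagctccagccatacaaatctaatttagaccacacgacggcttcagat
CG4168: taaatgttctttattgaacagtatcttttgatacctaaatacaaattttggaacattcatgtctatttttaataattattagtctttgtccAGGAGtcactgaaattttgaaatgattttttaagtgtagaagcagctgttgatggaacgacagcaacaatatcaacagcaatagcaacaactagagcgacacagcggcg
Msp300: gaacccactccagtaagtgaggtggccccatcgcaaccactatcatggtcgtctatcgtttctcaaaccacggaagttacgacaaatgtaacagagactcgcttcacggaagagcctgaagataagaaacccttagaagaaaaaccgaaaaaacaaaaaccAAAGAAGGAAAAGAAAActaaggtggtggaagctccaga
sls: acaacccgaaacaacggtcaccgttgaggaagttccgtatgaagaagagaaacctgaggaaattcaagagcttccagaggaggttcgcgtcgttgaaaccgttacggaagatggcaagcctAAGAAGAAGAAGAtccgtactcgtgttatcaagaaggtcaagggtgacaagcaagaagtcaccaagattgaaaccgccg
heca: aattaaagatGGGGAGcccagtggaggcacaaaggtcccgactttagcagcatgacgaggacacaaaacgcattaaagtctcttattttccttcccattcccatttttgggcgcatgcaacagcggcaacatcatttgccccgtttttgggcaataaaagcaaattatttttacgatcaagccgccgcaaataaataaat
WDY: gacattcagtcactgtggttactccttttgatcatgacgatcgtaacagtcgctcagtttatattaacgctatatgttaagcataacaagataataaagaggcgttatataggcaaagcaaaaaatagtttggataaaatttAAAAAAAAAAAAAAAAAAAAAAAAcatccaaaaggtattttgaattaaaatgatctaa
mew: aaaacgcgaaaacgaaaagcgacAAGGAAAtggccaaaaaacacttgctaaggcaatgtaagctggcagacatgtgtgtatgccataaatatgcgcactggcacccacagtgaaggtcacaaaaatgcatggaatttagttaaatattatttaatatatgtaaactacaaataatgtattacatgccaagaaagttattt
mAChR-B: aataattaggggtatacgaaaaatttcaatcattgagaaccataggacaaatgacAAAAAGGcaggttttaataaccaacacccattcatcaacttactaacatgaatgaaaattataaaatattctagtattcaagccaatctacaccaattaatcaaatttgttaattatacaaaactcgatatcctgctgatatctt

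The longest unbroken run of A within the window was 24 bases in WDY, 20 in MsR1 and 15 in CG46458 and Antp. The windows of Msp300 and sls, both coding, had runs of 6 and 3 A, and reached 61.5% and 63% purine through mixed stretches of A and G. The windows of CG4168 and heca were counterexamples, with longest purine stretches of 5 and 6 bases and 52% and 51.5% purine. Over the whole region, however, the longest run of A was 9 bases in CG4168 and 14 in heca. The window of CG46458 and Antp was 54.5% purine despite its run of 15 A. Purines made up 60% or more of 5 of the 9 windows, so the asymmetry was weak in some of the printed windows.

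Across all members long runs of A were frequent. A run of at least 10 A lay within the 300 bases around the core centre in 1557 of 2721 members, 57.2% (55.4 to 59.1%). The same feature was found in 4.08% of 321246 windows of 300 bases tiled over all transcripts on their own strand. A run of at least 10 T on the same strand was found in 5.37% of members (4.58 to 6.28%) and in 3.85% of transcript windows, so the difference was far larger for A than for T. A purine tract of at least 20 bases was found in 14.1% of members (12.9 to 15.5%) and 1.07% of windows, and a pyrimidine tract of that length in 1.25% (0.896 to 1.74%) and 1.00%. GAGAG, the core of the GAGA factor motif, searched on both strands as GAGAG or CTCTC, was found in 32.6% of members (30.8 to 34.3%) and 30.7% of windows.

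Runs of A were also frequent where no transcript ran on that strand. In the 2091 constitutive antisense regions a run of at least 10 A was found in 59.4% (57.3 to 61.5%), and in the 1924 constitutive regions without a transcript in 55.6% (53.3 to 57.8%), values whose intervals overlap that of the members. It was less frequent among sense regions of fewer lists, with 38.8% (37.6 to 40.1%) of the 6100 regions of 2 lists and 22.3% (21.5 to 23.0%) of the 11992 regions of 1 list. Among the latter it was found in 3.23% of regions of S2 cells alone, 18.6% of regions of 2–3 h embryos alone and 42.1% of regions of 14–16 h embryos alone. The regions of 14–16 h embryos alone also held a run of at least 10 T in 24.5%, against 5.37% of members, and had a median AT skew of 0.0893 (0.0806 to 0.0977), positive but lower than in members.

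Each list was also split into the peaks that lay in members and its other peaks on the strand of a transcript, with the window set on the centre of the peak itself. In S2 cells 46.6% (44.8 to 48.5%) of the 2749 member peaks that overlapped a transcript themselves held a run of at least 10 A, compared with 7.39% (6.85 to 7.96%) of 8512 others. In 2–3 h embryos the shares were 51.6% (49.7 to 53.5%) and 33.1% (32.0 to 34.2%). In 14–16 h embryos they were 54.9% (53.1 to 56.8%) and 47.8% (46.8 to 48.8%). The contrast with the other peaks was thus widest in the S2 list and narrowest in the 14–16 h list. The same S2 peaks had a median GC content of 40% against 46% for the other sense peaks of the list, and a median GC skew of 0.0562 against 0.130.

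**Figure D1:**
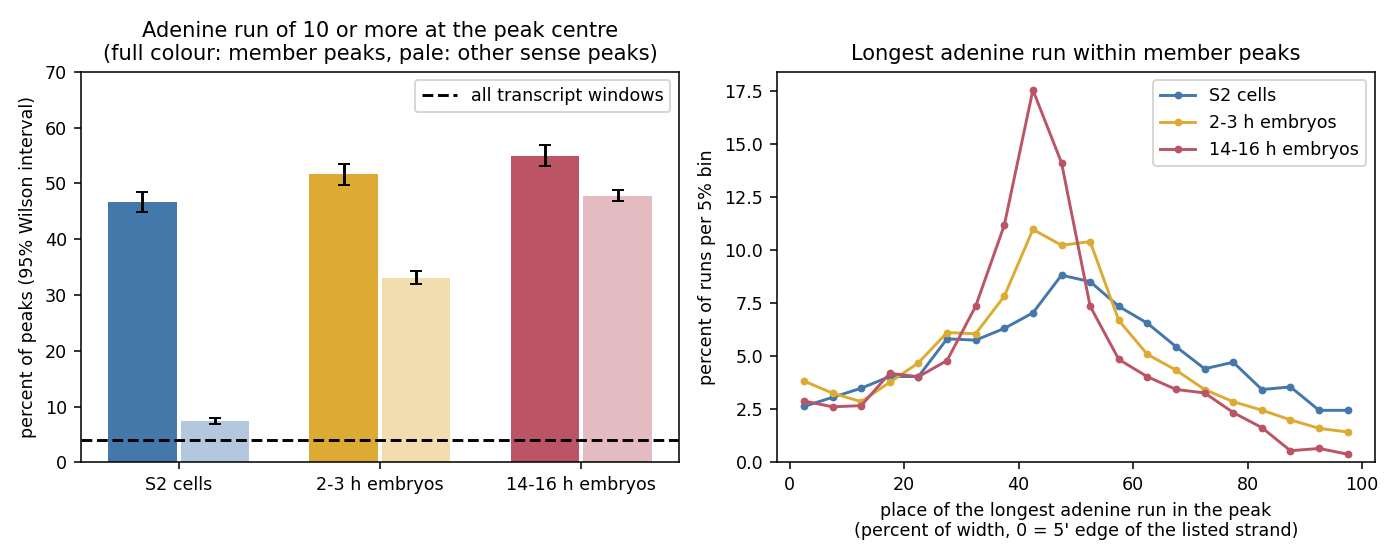
Left, the percent of each list's peaks on the strand of a transcript with a run of at least 10 A in the 300 bases around the peak centre, for member peaks and other sense peaks (bars, 95% Wilson intervals), with the share of all transcript windows, 4.08%, as a dashed line. Right, the place of the longest run of at least 10 A within the member peak of each list, in percent of the peak width from its 5' edge on the listed strand: the 14–16 h curve is the narrowest, with a median at 43.0%.

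The runs lay inside the peaks in most members, and more often in the middle than toward either edge. Over the whole length of a region, 1862 members (68.4%) held a run of at least 10 A, 526 (19.3%) one of at least 15 and 107 (3.93%) one of at least 20, with a median longest run of 11 and a maximum of 54. Of the 1862, the longest run fell within the S2 peak in 87.6%, within the 2–3 h peak in 93.9% and within the 14–16 h peak in 98.4%. The coverage of a member by these lists had the same order, with medians over all members of 75.6%, 79.3% and 83.9% of the covered bases. Counted from the 5' edge on the listed strand, the median place of the run was 49.3% of the width of the S2 peak (47.8 to 50.8%), 45.2% of that of the 2–3 h peak (44.1 to 46.5%) and 43.0% of that of the 14–16 h peak (42.4 to 43.5%). With the peak cut into 3 equal parts, the middle part held 48.9%, 54.9% and 63.2% of the runs in that order, so the run sat most tightly in the 14–16 h peaks and was spread most widely in those of S2 cells.

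Skew was measured over the 200 bases around the core centre. The median AT skew, (A−T)/(A+T) on the listed strand, was 0.277 (0.269 to 0.283), and 2439 of 2721 members (89.6%) were above 0. The median over all transcript windows was 0.0182. Constitutive antisense and unannotated regions had 0.266 and 0.263, sense regions of 2 lists 0.248 and sense regions of 1 list 0.143. The median GC skew, (G−C)/(G+C), was 0.0462 (0.0380 to 0.0526), lower than in sense regions of 1 list, 0.0638 (0.0602 to 0.0682), and than in regions of S2 cells alone, 0.138 (0.133 to 0.143), but higher than in regions of 14–16 h embryos alone, -0.0120 (-0.0145 to 0). The median GC skew was 0 over all transcript windows and 0.0566 (0.0508 to 0.0633) in sense regions of 2 lists. Constitutive antisense and unannotated regions had 0.0649 (0.0575 to 0.0732) and 0.0750 (0.0667 to 0.0824). Members therefore carried an excess of A over T and a small excess of G over C. The latter was above the median of transcript windows and below that of the other constitutive regions.

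The AT skew was local. In windows of 50 bases its mean over members rose from 0.0293 ± 0.00565 (SE over regions) at the far 5' end of the 500 bases shown to 0.269 ± 0.00666 just 5' of the centre, and fell to 0.0273 ± 0.00562 at the far 3' end. Mean GC skew passed from -0.0129 ± 0.00530 to 0.0468 ± 0.00575 just 3' of the centre and back to -0.0149 ± 0.00553. At the AT peak A made up 39.9% of the bases and T 22.1%, against 30.6% and 29.0% at the far 5' end.

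**Figure D2:**
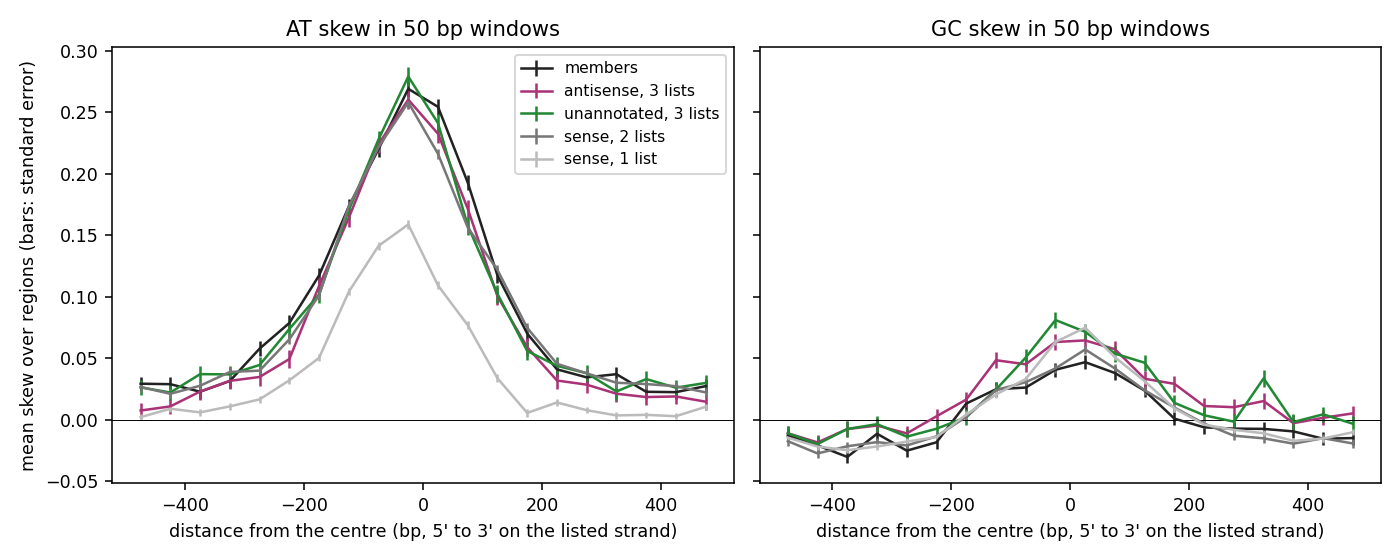
Mean AT skew (left) and GC skew (right) in 50 bp windows within 500 bp of the centre, 5' to 3' on the listed strand, with standard errors over regions. Members, constitutive antisense and constitutive unannotated regions share an AT peak of 0.260 to 0.279 just 5' of the centre, and sense regions of 1 list stay lower.

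The feature was present in each part of the transcript. Members centred in introns held a run of at least 10 A in 59.4% (57.1 to 61.7%, 1778 members), those in 3' UTRs in 60.9% (55.6 to 66.0%, 335 members) and those in 5' UTRs in 54.6% (48.1 to 61.0%, 227 members). Those centred in coding exons held one in 29.5% (22.3 to 37.8%, 129 members), yet had a median AT skew of 0.339 (0.290 to 0.362), above the 0.260 (0.252 to 0.268) of intronic members. A purine tract of at least 20 bases was found in 17.1% (11.5 to 24.5%) of coding and 15.6% (14.0 to 17.3%) of intronic members, with overlapping intervals. A run of A or such a tract was held by 40.3% (32.2 to 48.9%) of coding and 62.7% (60.4 to 64.9%) of intronic members. The mixed purine stretches printed for Msp300 and sls, of 17 and 13 bases, were below that length.

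Members lay mostly in introns and seldom in coding sequence. The core centre was in an intron in 1778 members, 65.3% (63.5 to 67.1%), against 62.9% of all transcript bases. Introns held the centre of 65.2% (64.3 to 66.0%) of sense regions of 1 list and 58.1% (56.9 to 59.3%) of those of 2 lists. For regions of 14–16 h embryos alone the share was 75.4% (74.2 to 76.5%), above the members. The core centre of members was in a coding exon in 4.74%, against 22.0% of transcript bases. That share was 17.9% (17.0 to 18.9%) for sense regions of 2 lists and 14.5% (13.9 to 15.2%) for those of 1 list. Regions of S2 cells alone were centred in coding exons in 24.2% and regions of 2–3 h embryos alone in 22.3%, while those of 14–16 h embryos alone were there in 2.86% (2.45 to 3.35%), below the members. The centre was in a 3' UTR in 12.3% (11.1 to 13.6%) and in a 5' UTR in 8.34% (7.36 to 9.44%), against 7.84% and 4.60% of transcript bases. In 5.37% the centre lay just outside the transcript that the region overlapped.

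**Figure D3:**
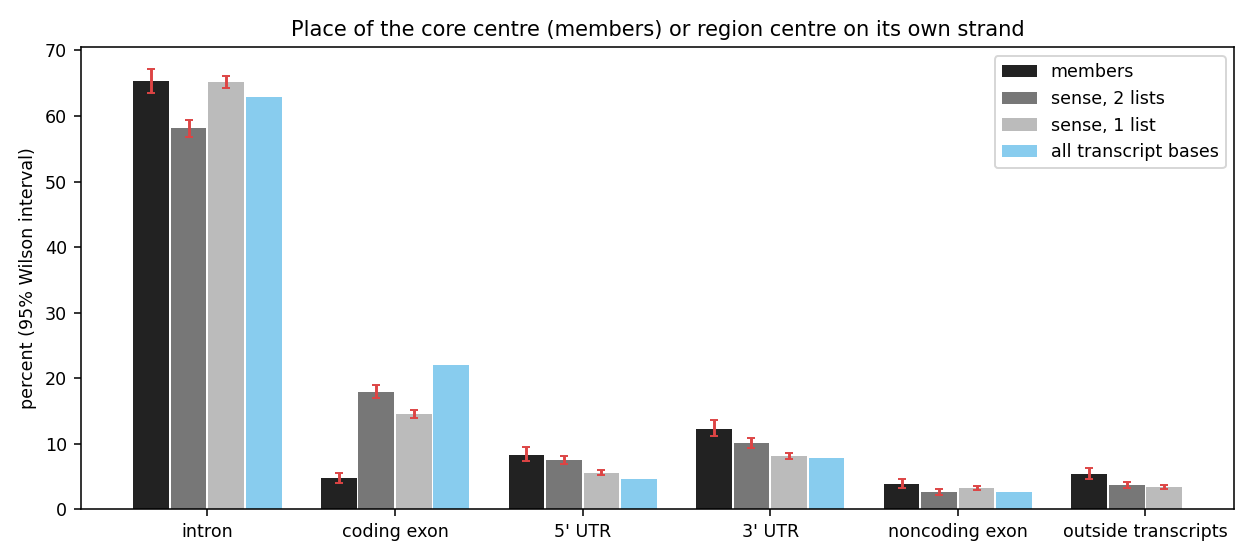
Percent of core centres of members, of centres of sense regions of 2 lists and 1 list, and of all transcript bases in each part of a transcript on the same strand (error bars, 95% Wilson intervals). The coding exon bars differ most, with 4.74% of members and 22.0% of transcript bases.

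Intronic members did not favour the first intron. In the longest transcript holding the centre, 589 of 1778 (33.1%) were in intron 1, and first introns make up 33.1% of the intron bases of the longest transcript of each gene. Introns of at least 10 kb held 66.8% (64.6 to 69.0%) of intronic members and 60.1% of those intron bases, and the share was 66.7% for sense regions of 1 list. The core centre was within 1 kb of the start of a transcript that the region overlapped in 604 members, 22.2% (20.7 to 23.8%), and within 1 kb of a transcript end in 20.2% (18.7 to 21.8%). For transcript windows of 300 bases these shares were 17.4% and 16.4%, and for sense regions of 2 lists 23.0% and 20.9%. Of the members near a start, 470 (17.3%, 15.9 to 18.7%) lay downstream of it and 134 upstream. The region had to overlap the transcript, so a centre could lie upstream only by part of its region, and this direction is tied to the rule. The downstream share alone was close to that of the windows, which lie inside transcripts. A further 1154 members (42.4%) were more than 5 kb from any start or end.

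The 3 lists covered a member to different extents. The agreement of a member, the core in bp divided by the bp covered by any list, had a median of 0.526 (0.515 to 0.537) and quartiles of 0.345 and 0.656. Since overlap was the rule, these values are a description. The median region was 650 bp long with a core of 313 bp. Exactly 1 peak of each list made up 2547 members (93.6%). At the edge of the rule, 87 members (3.20%) had no base covered by all 3 lists and were joined through a chain of peaks, and 9 had under 50 bp in a transcript. Just outside it, 10 regions of all 3 lists had a transcript on their strand within 50 bp, and 7 of 6100 sense regions of 2 lists had a peak of the missing list within 50 bp.

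Peaks in members were wider than other sense peaks of the same list. The median was 433.5 bp against 393 bp in the S2 list (ratio 1.10), 458.5 bp against 375 bp in the 2–3 h list (1.22) and 469 bp against 368 bp in the 14–16 h list (1.27). Wide peaks meet others more often, so width is tied to the rule. Members used 9.79% of the S2 list, 12.4% of the 2–3 h list and 9.70% of the 14–16 h list. The S2 peak covered the fewest bases in 1204 members (44.2%) and the 14–16 h peak the most in 1171 (43.0%).

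Pairs of lists differed in how well they matched. The median agreement of S2 cells with 2–3 h embryos was 0.700 (0.691 to 0.710) and that of the embryo lists with each other 0.721 (0.710 to 0.730), while S2 cells and 14–16 h embryos reached 0.596 (0.583 to 0.607). In the 2547 members with 1 peak of each list, the signed difference of the 5' edge on the listed strand had a median of 6 bp or less in each pair, with members going both ways (quartiles of -63.5 and 107.5 bp for 14–16 h against S2 peaks). The 3' edge of the 14–16 h peak lay a median of 63 bp (57 to 68) downstream of that of the S2 peak, and downstream in 69.9% of members. The 2–3 h peak stood between, 22 bp (19 to 27) downstream of the S2 edge and 30 bp (27 to 33) upstream of the 14–16 h edge. A shift in 1 direction was thus seen at the 3' edge, while either edge varied widely between lists. Members with a run of at least 10 A had a median coverage of 431 bp in the S2 list, 471 bp in the 2–3 h list and 500.5 bp in the 14–16 h list, and those without one had 460, 453 and 427 bp, the reverse order.

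**Figure D4:**
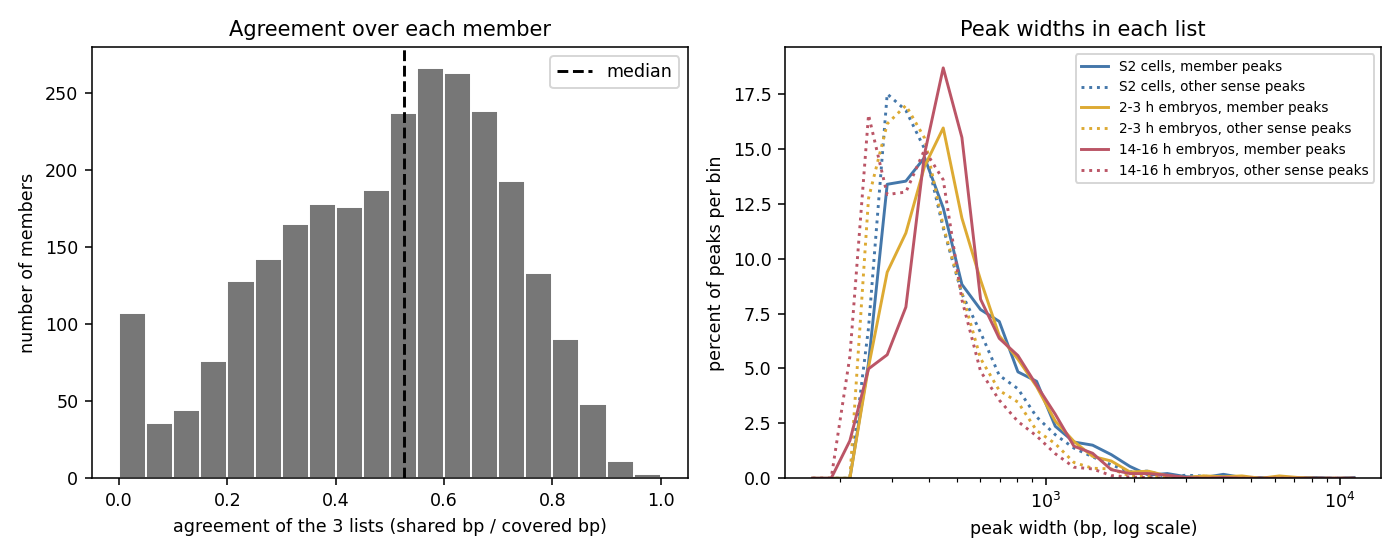
Left, the number of members in each 0.05 step of agreement, with the median of 0.526 dashed. Right, the widths in bp (log axis) of member peaks and of other sense peaks in each list, in percent of peaks per bin; the member curves lie to the right, with medians of 433.5, 458.5 and 469 bp.

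The longest cores lay in a pair of giant muscle genes. The longest lay over coding exons of Msp300 (Dmel_CG42768) on chr2L:5168262-5181082, where peaks covered 11996 bp in the S2 list, 11317 bp in the 2–3 h list and 6427 bp in the 14–16 h list, with a core of 4923 bp. Coverages of other members follow in this order. The next, in sls (Dmel_CG1915) on chr3L:2063448-2069710, was covered over 4991, 6263 and 2520 bp, and its 14–16 h peaks lay wholly within the core. Both had 1 long block in 1 list that was split into up to 5 peaks in another. The troponin T gene up (Dmel_CG7107, 9 introns in its longest transcript, intron 4) was covered over 2183, 2372 and 1568 bp. The tendon cell factor gene stripe, sr (Dmel_CG7847), was covered over 1755, 1443 and 2419 bp. The lowest coverage was that of 14–16 h embryos in Msp300, sls and up, and that of 2–3 h embryos in sr.

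Other long cores lay in genes of unrelated roles. Maf1 (Dmel_CG40196), a repressor of RNA polymerase III, had 1858, 2091 and 2187 bp, and the memory gene radish, rsh (Dmel_CG44424), had 1780, 1706 and 1550 bp in its 3' UTR. The region in mAChR-B (Dmel_CG7918) on chr3R:8069295-8070849 was the most even, with 1497, 1407 and 1455 bp. The region in WDY (Dmel_CG45799) on chrY:2387710-2394938, whose window above holds the run of 24 A, was the least even, with 7229, 2551 and 1447 bp and an agreement of 0.198. The regions in heca and mew had cores of 1484 and 1413 bp.

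The members with the highest agreement had nearly the same width in every list. The first lay in the 3' UTR of beat-VI (Dmel_CG14064), an immunoglobulin-domain gene of the beat family, on chr3R:28473005-28473818, with peaks of 795, 799 and 814 bp and an agreement of 0.969. The intronic region of Galphao (Dmel_CG2204), the Go alpha subunit, had 460, 481 and 474 bp. That of dpr9 (Dmel_CG33485), another immunoglobulin-domain gene, had 527, 513 and 508 bp in its 3' UTR. The region of zfh1 (Dmel_CG1322), a zinc finger homeodomain factor of mesoderm, was the widest of these with 1405, 1314 and 1376 bp in its 3' UTR. The region in the intron shared by CG46458 and Antp (Dmel_CG1028) on chr3R:6956639-6957300 had 641, 659 and 630 bp. MsR1 (Dmel_CG8985) had 489, 481 and 484 bp around the run of 20 A printed above. CG4168, CG42753 and CG31709, genes whose roles are not given here, had agreements of 0.919, 0.919 and 0.914. Within each of these 9 the lists differed by less than 100 bp.

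**Figure D5:**
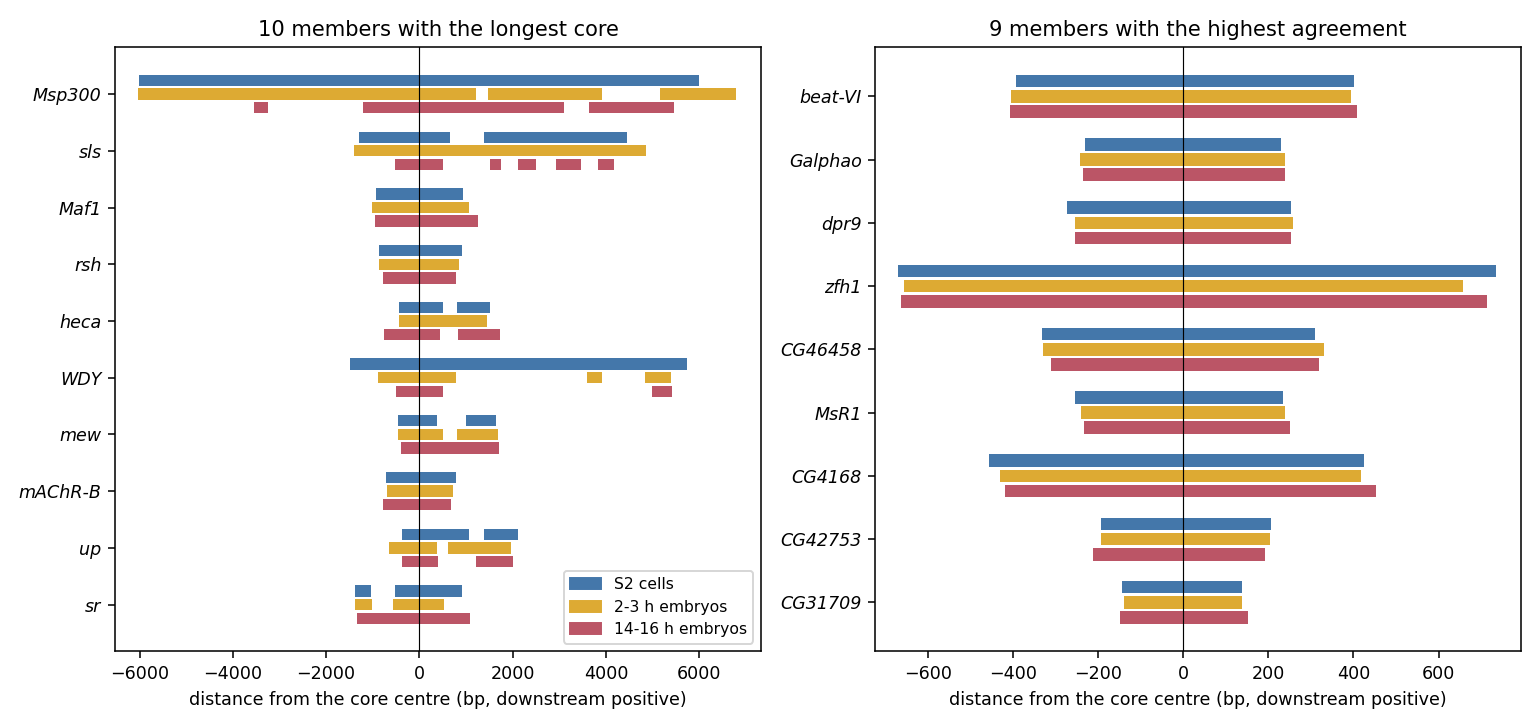
Peaks of each list over the 10 members with the longest core (left) and 9 of those with the highest agreement (right), drawn to scale as distance in bp from the core centre, downstream positive, with 1 colour per list. The blocks at Msp300 and sls are split differently in each list, while those at beat-VI, with peaks of 795 to 814 bp, coincide.

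Members were found in 1693 genes. Among all 17796 genes on the chromosomes with peaks this is 9.51%, and the share rose with length, from 3.09% of genes under 2 kb and 6.88% of genes of 2 to 10 kb to 41.4% of genes of 10 to 50 kb and 85.5% of the 325 genes of 50 kb and more. Per Mb of gene, members numbered 33.1, 18.0, 29.6 and 33.2 in the same order of length classes. From 2 kb up the density thus rose with length. The value for genes under 2 kb is not comparable, since a member counted on 1 bp of overlap and its region can reach past a short gene. In that class 309 genes were counted with a member, and 214 had a sense peak of their own in every list. Of genes with a member 1185 held a single one, 87 held at least 5 and 14 at least 10. The 87 genes contained 663 of the 2721 members. Of 2040 genes with a peak on their strand in every list, 1567 (76.8%) held a member, so in the others the lists placed their peaks at different places of the gene.

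The gene with the most members was Myo81F (Dmel_CG45784), a myosin gene on 3R that is 1965857 bp long, with 32. It was followed by Pzl (Dmel_CG45783), a Piezo-like channel gene of 709421 bp, with 22. Both are far longer than other genes, and member peaks covered at most 1.04% of Myo81F and 2.02% of Pzl in any list. The next genes were shorter. pum (Dmel_CG9755), the translational repressor Pumilio, held 17 members in 171340 bp, and they covered 9766, 9768 and 10057 bp in the same order of lists, which was even across the lists. mamo (Dmel_CG45477), a BTB zinc finger factor on X, held 16 in 144412 bp with 11087, 6882 and 11802 bp, lowest in 2–3 h embryos. hth (Dmel_CG17117), the homeodomain cofactor of Hox proteins, held 14 with 7368, 10644 and 8771 bp, lowest in S2 cells.

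DIP-lambda (Dmel_CG45781), an immunoglobulin-domain partner of Dpr proteins, and mtgo (Dmel_CG42389), a fibronectin-domain gene, held 13 each. In DIP-lambda S2 cells had 85 sense peaks against 28 and 26 in the embryos. bun (Dmel_CG42281), a TSC22 family factor, the teneurin gene Ten-a (Dmel_CG42338) and the adhesion gene echinoid, ed (Dmel_CG12676), held 12 each. Ten-a showed how members and other peaks can differ, since it had 17, 50 and 80 sense peaks in that order, while its 12 members covered 4343, 7414 and 7039 bp. Of the members in these 10 genes most were intronic, all 22 in Pzl, all 12 in ed and all 12 in Ten-a. A run of at least 10 A was held by 14 of 17 members in pum, 13 of 16 in mamo, 11 of 12 in Ten-a and 15 of 32 in Myo81F.

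Genes of body patterning varied in how many held a member. All 3 Bithorax complex Hox genes held at least 1 (Ubx 8, abd-A 2, Abd-B 2), as did 3 of 9 genes of the Antennapedia complex (Antp 7, pb 3, Scr 1). Of pair-rule genes, which set up alternate segments, 1 of 9 did (opa), and of gap and terminal genes 4 of 11 (knrl, hb, oc and tll, 1 each). Of segment polarity genes 9 of 17 did, with 3 members each in hh, the Hedgehog ligand, and ptc, its receptor. The medians of gene length were 45025 bp for the Bithorax list and 2533 bp for the pair-rule list, and the shares for genes of these lengths in general are those given above by length class. No test of a list was made, and these lists were chosen with earlier results known.

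The lists of signalling and transcription factor genes were counted over genes of at least 10 kb, of which 988 of 2041 (48.4%) held a member in the whole annotation. That share joins the 41.4% and 85.5% of the length classes above, so it is not matched to lists of longer genes, such as the BTB list with a median of 51914 bp. Among list genes of that length, 5 of 7 Notch pathway genes, 9 of 10 Dpp and dorsoventral genes and 6 of 7 EGF receptor pathway genes held a member. Examples are kuz, the protease that cleaves Notch, with 4 members, the dorsoventral factor gene twi with 3, the ETS factor gene pnt with 6 and the EGF receptor antagonist sty with 3. Of nuclear receptor and ecdysone genes 11 of 13 of that length did (EcR 7, Eip75B 5, Hr38 4), and of BTB transcription factor genes 10 of 10 (lola 8, chinmo 7, fru 6, psq 5).

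The same count was made for genes of the nervous system and of adhesion. Of genes of at least 10 kb, 10 of 15 axon guidance genes (Sema1a 8, NetB 7, NetA 4), 11 of 16 cadherin, teneurin and adhesion genes (Ten-a 12, ds 5, Fas3 4, CadN 4), 10 of 12 voltage-gated channel genes (Sh 6, Ca-alpha1T 3), 13 of 15 RNA-binding protein genes (pum 17, bru1 8, Rbfox1 6, heph 5) and 6 of 10 adenylate cyclase and G protein genes (dnc 7, rut 3, Galphao 3) held a member. The median gene length was 92306 bp in the RNA-binding protein list and 52757 bp in the channel list, for which the share of all genes of 50 kb and more, 85.5%, is the nearer one. Of muscle and mesoderm genes 9 of 11 did (kirre 9, Msp300 4, sls 3, zfh1 3) and of neuroblast and temporal factor genes 4 of 6 (pros 9, grh 6). Of Polycomb group genes of that length 1 of 5 did (Psc, 2 members). Among the zygotic genome activation factors zld, opa and Trl held 1 each, of 4 listed, all 3 of them over 10 kb. Of cell cycle genes, with a median length of 3936 bp, 5 of 17 of any length did and 3 of 4 of at least 10 kb (E2f1 3, CycE 2, stg 1, CycA 1).

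For lists of short genes, the share of genes that held a member is set beside that of all genes of the length class. Of 92 cytoplasmic ribosomal protein genes 2 did (RpL5 and RpS19a), 2.17% (0.598 to 7.58%), near the 3.09% of all genes under 2 kb, and 17 had a sense peak in the S2 list, 14 in the 2–3 h list and 6 in the 14–16 h list. Of 12 glycolysis genes, with a median length of 3864.5 bp, 1 did, Pfk (8.33%, 1.49 to 35.4%), near the 6.88% of all genes of 2 to 10 kb. Of 257 small nucleolar RNA genes 1 (0.389%), of 295 transfer RNA genes 2 (0.678%) and of 260 microRNA genes 9 (3.46%) overlapped a member. Their median lengths of 134, 73 and 92 bp are at the low end of the class under 2 kb with its 3.09%. Histone genes differed, with 38 of 116 overlapped by 17 members, of which 16 lay in the tandem repeat on 2L, most of them spanning several genes and some without a core. Copies of that repeat are nearly identical and how reads with several matches were placed is not given in the sources used here, so these values are uncertain. The single-copy variant His2Av held 1 member on its own.

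Genes of the DRIP-qPCR amplicons and of the browser views were followed whether or not they held a member. psq (Dmel_CG2368), a BTB factor, held 5 members, all in intron 3 of its longest transcript, which covered 3390, 3731 and 3774 bp in the order of lists used above. In the first of them, on chr2R:10573809-10574452, peaks of 644, 566 and 553 bp had an agreement of 0.792, and the AT skew was -0.362, against the usual sign. Df31 (Dmel_CG2207), a chromatin decondensation factor gene, held 1 on the reverse strand with 1511, 1725 and 601 bp, its core centre in a 3' UTR. On the forward strand of the same stretch lncRNA:CR44993 held 1 with 1755, 1364 and 514 bp, and the neighbouring lncRNA:CR43148 held 1 with 904, 816 and 653 bp. In all 3 the 14–16 h coverage was the lowest.

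The member of zld (Dmel_CG12701), the pioneer factor Zelda, had 260, 1484 and 1597 bp, lowest in S2 cells, with its core centre 504 bp beyond the transcript end. Act5C, RpL18, Best2, Ldh, CG10163, lncRNA:CR44522 and Ac3 held none. Of these Act5C and Ac3 had 2, 1 and 0 sense peaks each in that order of lists, and Best2 and Ldh had 0, 1 and 2 in that order. RpL18, CG10163 and lncRNA:CR44522 had no sense peak in any list.

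A peak on the opposite strand was common beside a member. The member's peak overlapped such a peak of the same list by at least 1 bp in 23.9% (22.4 to 25.6%) of members in the S2 list, 27.5% (25.8 to 29.2%) in the 2–3 h list and 57.4% (55.6 to 59.3%) in the 14–16 h list. The 14–16 h share was alike in sense regions of 2 lists, 56.5%, and of 1 list, 58.2%, so the high value was shared by the sense regions of that list. All 3 lists had an opposite peak in 346 members (12.7%, 11.5 to 14.0%), and none in 951 (35.0%). Members without any had a median AT skew of 0.323 (0.310 to 0.333) and a run of at least 10 T in 0.736%. Members with one in all lists had a median AT skew of 0.157 (0.123 to 0.185) and a run of at least 10 T in 17.6% (14.0 to 22.0%). Members with one in 14–16 h embryos alone, 773, held a run of at least 10 A in 69.9% (66.5 to 73.0%). A transcript on the other strand as well was present at 321 members (11.8%).

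By chromosome, 3R held 760 members, 2L 570, 2R 490, X 484, 3L 402, chromosome 4 12 and Y 3. Per Mb of transcript on the same strand this was 34.3 on 2L, 31.3 on 3R, 27.6 on 2R, 25.6 on X, 21.2 on 3L, 11.1 on 4 and 2.82 on Y. As a share of the sense regions of the arm, members made up 15.1% (14.0 to 16.3%) on 2L, 14.5% (13.6 to 15.5%) on 3R and 14.2% (13.1 to 15.4%) on 2R. The share was 10.9% on 3L and 10.8% (9.88 to 11.7%) on X. On X the S2 list entered 1308 of 4502 sense regions, the 2–3 h list 2136 and the 14–16 h list 3423, and on 3L 1647 of 3687, 1895 and 2116, so the S2 list entered the fewest on both. On 2L the S2 list was the highest with 2663 of 3777.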

How the data were processed

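Peaks of ssDRIP-seq in S2 cells and in embryos of both ages were analysed. The authors trimmed 10 bases at the 3' end of each read, where the kit adds low-complexity sequence, and aligned reads to dm6 with bowtie2. After duplicate marking and strand separation, MACS2 was run by them on the pooled replicates. Per the study's methods the control was RNase H1-treated material, while the results text describes separate calls against input and RNase H1 of which the overlap was retained, and which of these gave the lists is not settled here. Peaks on both strands that overlapped nearly completely were removed by the authors. The deposited lists give start, end and width in bp and the strand of each peak, and no columns of other samples were used. Depth per sample and replicate spread are unknown. How reads with several matches were placed is not given either, which bears on any repeated sequence and not on the histone repeat alone.

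Genes, transcripts (35289) and sequences came from RefSeq with the FlyBase 6.54 annotation of the same build. Positions count from 1. Where exons of transcripts differed, a base was counted as 5' UTR, then 3' UTR, coding exon, noncoding exon and intron. Regions of 2 lists were centred on the longest stretch both covered, and regions without a shared stretch, or of 1 list, on the region or peak. Printed windows leave out chromosome arm 2R, UTRs and mobile elements. Transcript windows of 300 bases were tiled without overlap. Shares carry 95% Wilson intervals and medians 95% order-statistic intervals, and regions are not replicates, so no test was made. The genes named were the 10 with the most members, those of the 10 longest cores and 10 highest agreements, those of the study's amplicons and browser views, and up to 4 of each of 26 gene lists. Of the members so chosen 1 is not reported here. Of the list entries 2 were not matched by symbol or synonym. The members and lists were chosen with earlier results of these data known. Alternatives changed the overlap, width, transcript, strand and chromosome rules and the windows. The programs were checked on simulated data. The work used matplotlib 3.10.9, SciPy 1.17.1 and NumPy 2.4.6 under Python 3.11.15. Blots, expression and chromatin data were not analysed here.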

Additional observations from a re-analysis of the deposited data

How the results depend on the processing

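Among 135 alternative values, 67 of those for the main results were counted as unchanged and 48 as moved. A value was unchanged if it lay within the interval of the main result. The number of members has no interval and was judged by a fold limit instead. Only the skews could have changed sign, and none did. With peaks joined at 50% reciprocal overlap the median agreement was 0.595, the width ratio 1.05 in the S2 list and 1.17 in the 2–3 h list, the share with an opposite peak in all lists 11.2%, the AT skew 0.284, the share with a run of A 61.3% and the share of genes 7.41%. With peaks wider than the median of their list there were 975 members, with an agreement of 0.565, width ratios of 1.075, 1.19 and 1.17, opposite peaks in 8.82%, an AT skew of 0.246, a GC skew of 0.0345, a run of A in 53.3% and 4.37% of genes. With the region centre inside a transcript, introns held 69.0%, 19.7% lay within 1 kb of a start on either side, and 8.63% of genes held a member. With the overlap limited to transcripts of protein-coding genes these values were 68.6%, 19.6% and 8.45%, the last still a share of all genes of any type. Of protein-coding genes alone, 10.4% held a member under the main rule. Without a transcript on the other strand the 3 values were 68.2%, 19.8% and 8.002%, and the 2–3 h width ratio was 1.19. With exactly 1 peak of each list the agreement was 0.542, the 2–3 h width ratio 1.20 and the share of genes 8.92%. Without peaks overlapping an opposite peak by 50% reciprocally, there were 1441 members, with 60.2% in introns, a 2–3 h width ratio of 1.14, opposite peaks in 2.498%, an AT skew of 0.304, a GC skew of 0.0566, a run of A in 55.2%, a purine tract in 11.9% and 6.01% of genes. A start distance of 500 bp gave 15.5%, and an opposite peak over 50% of the bases 4.81%. Skew windows of 100 and 400 bp gave AT skews of 0.311 and 0.204, and the longer a GC skew of 0.0303. Runs of at least 8 and 12 A were in 72.5% and 35.6%, and purine tracts of at least 15 and 30 bases in 43.0% and 1.29%. Leaving out chromosomes 4 and Y moved no main result beyond its interval.

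No paired analysis was possible because each list pools both replicates. For the same reason no replicate was left out. The lists hold no heights or counts, so depth and its part in which peaks were called in each sample type cannot be read from them.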

Other observations

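Words of 6 bases were counted in the 300 bases around each core centre after the runs of A had been seen, and are given as a description. AAAAAA was present in 86.6% of members and 23.4% of transcript windows, AAAAGA in 49.7% and 16.2%, and AAAAAG in 59.4% and 20.1%. Among words present in over 10% of members, the one with the lowest ratio was TTTCTT, with 10.8% and 16.7%.

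Annotated mobile elements on either strand overlapped 134 members (4.92%, 4.17 to 5.80%), against 4.10% (3.63 to 4.63%) of sense regions of 2 lists, 5.84% of those of 1 list, 5.31% of constitutive antisense regions and 11.1% (9.75 to 12.6%) of constitutive regions without a transcript. By type of gene, members were found in 1456 of 13944 protein-coding genes (10.4%) and 175 of 1987 lncRNA genes (8.81%). The shares were 15 of 98 for rRNA genes (15.3%, 9.50 to 23.7%) and 10 of 54 for genes annotated as ncRNA (18.5%, 10.4 to 30.8%).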
